A study of Mus musculus with 20 samples.

Results

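Gata2, Gata3 and Lmx1b are the 3 genes described here, chosen by symbol as the transcription factors that act beside Pet-1 in serotonin (5-HT) neurons. They were found in the stage matrix of 22556 genes and in both knockout tables of 22552 genes, and all 3 passed the filter on low values that left 11741 genes for the stage test. The libraries came from EYFP-positive 5-HT neurons of C57BL/6 mice, sorted by flow cytometry. Wild-type neurons were sampled at E11.5, at E15.5 (E for embryonic day) and on postnatal days 1 to 3 (PN), with 3 libraries per stage made with the Clontech SMARTer kit. At E15.5 the Pet-1-/- neurons, which lack the factor encoded by Fev, were set against wild type with the Clontech kit and again with the NuGEN Ovation kit, with 3 libraries per group and kit. Chromatin came from dissected rostral hindbrain of E12.5 to E14.5 embryos, as 1 immunoprecipitation with an antibody against Myc and 1 input. Per the labels' protocol these embryos were Pet-1-/- and carried the transgenes ePet-mycPet-1 and ePet-EYFP, although another label calls them wild type and the protocol gives E15.5 as the last age. The ePet element is a Fev regulatory fragment, so the tagged factor was made from a transgene in the cells where that fragment is active. The labels do not say whether libraries of a group came from separate animals, so the p-values measure the spread between these libraries, which may be technical.

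Terminal selectors are transcription factors that switch on the genes of a neuron's final identity together and keep them on. In 5-HT neurons these genes include the synthesis enzyme Tph2 and the transporter Slc6a4. Gata2 and Gata3 are zinc finger proteins that bind the letters GATA. In the mouse hindbrain Gata2 acts at the exit of 5-HT precursors from the cell cycle, ahead of Gata3 and Fev, and Gata3 is needed most in the caudal 5-HT groups. Lmx1b, a LIM homeobox protein whose domain binds sites rich in TAAT, is needed for 5-HT neurons to form and to keep making serotonin. Pet-1 is an ETS factor, a family that binds around the core GGAA.

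The promoters are shown because the mycPet-1 peaks of the next paragraphs lie on or beside them. The Fev promoter also carries GATAA and TAATTA, longer forms of the letters that the members bind. Each run holds the 250 bases before a start site, 5′ to 3′ on the gene's strand, from RefSeq on GRCm38.p6 (mm10). All 3 members and Fev matched the table by gene ID, Gata2 with an upstream and a downstream start site. In the members the capitals mark GGAA on either strand (TTCC on the strand shown). In Fev they mark GATAA and TAATTA, searched on both strands.
Gata2, upstream start site, chr6:88193641-88193890, plus strand: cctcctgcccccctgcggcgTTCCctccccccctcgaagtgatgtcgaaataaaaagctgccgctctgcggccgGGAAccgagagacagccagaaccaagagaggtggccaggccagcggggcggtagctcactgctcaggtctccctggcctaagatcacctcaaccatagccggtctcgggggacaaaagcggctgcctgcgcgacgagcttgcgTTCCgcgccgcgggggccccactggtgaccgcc
Gata2, downstream start site, chr6:88198414-88198663, plus strand: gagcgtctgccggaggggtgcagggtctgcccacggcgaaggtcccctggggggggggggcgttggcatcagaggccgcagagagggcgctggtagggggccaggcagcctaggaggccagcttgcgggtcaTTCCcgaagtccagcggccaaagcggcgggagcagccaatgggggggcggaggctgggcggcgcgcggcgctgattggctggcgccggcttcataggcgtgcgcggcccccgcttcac
Gata3, chr2:9878601-9878850, minus strand: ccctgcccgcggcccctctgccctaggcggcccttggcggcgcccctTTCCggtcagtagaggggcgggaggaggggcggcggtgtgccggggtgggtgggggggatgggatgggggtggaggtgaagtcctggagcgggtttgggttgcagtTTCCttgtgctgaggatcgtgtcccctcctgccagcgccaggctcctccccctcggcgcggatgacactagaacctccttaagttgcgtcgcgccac
Lmx1b, chr2:33641099-33641348, minus strand: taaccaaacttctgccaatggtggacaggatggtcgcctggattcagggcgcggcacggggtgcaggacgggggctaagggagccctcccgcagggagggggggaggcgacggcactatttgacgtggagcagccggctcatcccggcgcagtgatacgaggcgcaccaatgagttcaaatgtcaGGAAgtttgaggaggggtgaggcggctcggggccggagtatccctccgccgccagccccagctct
Fev, chr1:74885409-74885658, minus strand: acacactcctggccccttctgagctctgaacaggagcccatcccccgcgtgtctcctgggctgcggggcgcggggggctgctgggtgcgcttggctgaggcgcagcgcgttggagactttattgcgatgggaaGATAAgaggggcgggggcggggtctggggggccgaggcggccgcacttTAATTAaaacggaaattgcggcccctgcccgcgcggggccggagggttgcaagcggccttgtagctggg
GGAA was found at 3 sites before the upstream start of Gata2 and at 1 before the downstream start, at 2 before Gata3 and at 1 before Lmx1b. The core is common: 93.4% of 32851 RefSeq promoters held it in the same window, with a median of 3 sites. GATAA and TAATTA were not in the windows of the members. The shorter GATA was not searched for, and the Lmx1b window holds it. The Fev window held 1 GATAA, ending 113 bases before the start site, and 1 TAATTA, ending 64 bases before it, and 2 GGAA. GATAA was in 22.6% of all promoters and TAATTA in 4.84%. TAATTA reads the same on both strands and was counted once a position, and no 2 of these motif matches overlapped in Fev. A match of letters describes the sequence and shows no binding.

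In wild-type neurons all 3 members were lower in PN than at E11.5, with Gata2 and Lmx1b at 0.0976 and 0.110 of their E11.5 mean and Gata3 at 0.296 of it. Gata3 had the highest level and Lmx1b the lowest in all 9 libraries, in FPKM (fragments scaled by transcript length and by the library's mapped fragments). The size of such differences between genes depended on the kit. At E15.5 the wild-type ratio of Gata3 to Lmx1b was 33.6 with Clontech and 160 with NuGEN. At E11.5 the means were 246 ± 59.0 FPKM for Gata3, 135 ± 42.4 FPKM for Gata2 and 31.5 ± 19.5 FPKM for Lmx1b (SD, n = 3 each), and the libraries of Gata3 and Gata2, and of Gata2 and Lmx1b, did not overlap. In PN the means were 72.9 ± 4.69, 13.2 ± 2.46 and 3.45 ± 3.35 FPKM in the same order (SD, n = 3 each). By level Gata3 kept a place among the higher transcripts, with 2.52% of 22542 genes above it at E11.5 and 6.78% in PN. For Lmx1b these shares were 10.7% and 35.3%. Changes were tested with limma on log2(FPKM + 1), with Benjamini-Hochberg adjustment over all 11741 genes. A gene was called when its adjusted p was below 0.05 and its change 1.5-fold or more. That scale understates the change of low genes such as Lmx1b. In sorted bulk samples, fewer cells of a type and less RNA per cell cannot be told apart.

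**Figure D1:**
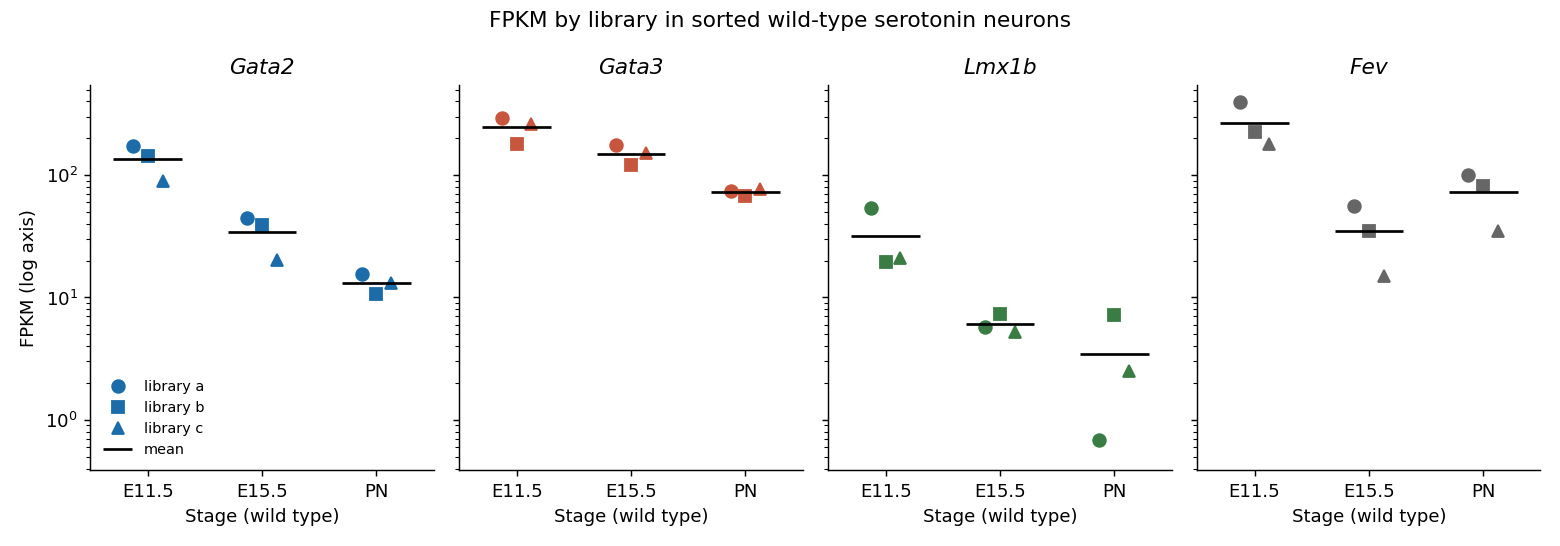
FPKM of Gata2, Gata3, Lmx1b and Fev (log axis) in each of the 9 wild-type libraries at E11.5, E15.5 and PN, with bars at the stage mean and symbols for libraries a to c of a stage, letters that follow column order. Gata2 and Gata3 stepped down without overlap from stage to stage, Lmx1b spread from 0.686 to 7.18 FPKM in PN, and Fev had its lowest mean at E15.5.

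Gata2, the GATA factor of newly born 5-HT neurons, fell in both intervals. Its E11.5 libraries held 173, 143 and 89.2 FPKM, those of E15.5 held 44.5, 38.8 and 20.3 FPKM, and those of PN 15.6, 10.7 and 13.2 FPKM. No stage overlapped another, and the lowest E11.5 library was above the highest E15.5 library. The log2 change was -1.96 (SE 0.35, limma adjusted p = 0.00175) for E15.5 against E11.5 and -1.27 (SE 0.35, limma adjusted p = 0.0245) for PN against E15.5. Over the whole span it was -3.23 (SE 0.35, limma adjusted p = 3.98e-05), and 0.503% of the genes tested had a lower change. Called lower in both intervals were 50 genes, 0.426% of those tested, and Gata2 was among them. The E15.5 libraries enter both intervals with opposite sign, which by itself makes such double calls less frequent. The call of the later interval was lost without E15.5 library a or b or PN library b or c, where the adjusted p was 0.104, 0.0820, 0.0846 and 0.0549 (limma), and with no filter on low values (adjusted p = 0.0555), and the estimates over all libraries left out in turn stayed between -1.60 and -1.06.

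Gata3, needed most in the caudal 5-HT groups, fell in the later interval and over the whole span. Its E11.5 libraries held 296, 181 and 262 FPKM, those of E15.5 held 175, 121 and 152 FPKM, and those of PN 73.8, 67.8 and 77.1 FPKM. The stages did not overlap, and the PN libraries lay within 1.14-fold of each other, the tightest group of any member. The E15.5 mean was 149 ± 27.3 FPKM (SD, n = 3), and the log2 change against E11.5, -0.70 (SE 0.26), missed the threshold (limma adjusted p = 0.0581). PN minus E15.5 was -1.01 on the log2 scale (SE 0.26, limma adjusted p = 0.0173), a fall, and PN minus E11.5 was -1.71 (SE 0.26, limma adjusted p = 4.03e-04). The earlier change passed with upper quartile scaling (log2 change -0.89, limma adjusted p = 0.0175) and without E11.5 library b (-0.91, adjusted p = 0.0317). The later call was lost without E15.5 library a or PN library a or b (limma adjusted p = 0.0709, 0.0541 and 0.0583).

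Lmx1b, the LIM homeobox partner, fell early and was then low and uneven. Its E11.5 libraries held 54.1, 19.4 and 21.2 FPKM, those of E15.5 held 5.69, 7.31 and 5.19 FPKM, and those of PN 0.686, 7.18 and 2.50 FPKM. E11.5 library a was the high one, the E15.5 libraries lay close together, and those of PN spanned 10.5-fold and overlapped with E15.5. The log2 change was -2.06 (SE 0.54, limma adjusted p = 0.0142) for E15.5 against E11.5 and -3.00 (SE 0.54, limma adjusted p = 0.00140) for PN against E11.5. The change between E15.5 and PN, at -0.95 (SE 0.54), did not pass (limma adjusted p = 0.242). Only the first of these was lost under another setting, which kept all low genes in the test (limma adjusted p = 0.0570).

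Of the 3 members, 2 were called for E15.5 against E11.5, 2 for PN against E15.5 and 3 for PN against E11.5, beside 28.9%, 20.2% and 27.4% of all 11741 genes. All these members were lower at the later stage, as were 1348, 1121 and 1177 of the genes called. Groups that did not overlap, with the later stage lower, were seen for 17.7%, 20.6% and 16.7% of genes, beside 3, 2 and 3 members. For E15.5 against E11.5 the calls over all genes were 2046 higher and 1348 lower, and 1659 higher and 1688 lower with upper quartile scaling. Over all genes the median change was 0.11, 0.01 and 0.08 on the log2 scale. For no member was the later change shown to differ from its earlier one: later minus earlier interval was 0.68 (SE 0.61) for Gata2, -0.30 (SE 0.45) for Gata3 and 1.11 (SE 0.94) for Lmx1b on the log2 scale (limma adjusted p = 0.449, 0.664 and 0.424). Fev, by the same test, turned: it was lower at E15.5 than at E11.5 and not lower in PN than at E15.5 (difference 4.06, SE 0.85, limma adjusted p = 0.00620). The authors' deposited table of stage comparisons, made with their own tool, gave log2 folds of -1.92, -0.69 and -2.33 for Gata2, Gata3 and Lmx1b at E15.5 over E11.5, with q of 3.88e-04, 3.88e-04 and 0.00338. For PN over E15.5 it gave -1.41, -1.04 and -0.84, with q of 3.88e-04, 3.88e-04 and 0.378. For Fev it gave 1.02 at PN over E15.5, with q of 0.00361, unlike the limma test. At q below 0.05 and 1.5-fold, that authors' deposited table called 3 of 3 members for E15.5 over E11.5, beside 34.0% of 13453 genes, and 2 of 3 for PN over E15.5, beside 28.5% of 14109 genes. The call of Gata3 at E15.5 thus differed from that of the limma test.

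Whether the members changed unequally was asked with ratios within a library, in which a common scale factor nearly cancels. The 6 pairs among the members and Fev were tested with an exact permutation test of the F statistic over the 1680 assignments of 9 libraries to 3 stages, adjusted over the 6 pairs, where the smallest p possible is 0.00357. The ratio of Gata2 to Gata3, on FPKM + 1, was 0.586, 0.790 and 0.343 at E11.5, 0.259, 0.327 and 0.139 at E15.5, and 0.222, 0.170 and 0.182 in PN. The E11.5 libraries had the highest ratios and did not overlap with the others, while E15.5 and PN did overlap. The mean log2 ratio was lower by 1.51 in PN than at E11.5, but the test did not pass after adjustment (exact permutation p = 0.0321, adjusted p = 0.0643). The ratio of Gata2 to Lmx1b was not shown to differ between stages, with mean log2 values of 2.17 ± 0.591, 2.27 ± 0.491 and 1.95 ± 1.39 at E11.5, E15.5 and PN (SD, n = 3 each, exact permutation p = 0.914, adjusted p = 0.914). Gata3 to Lmx1b, at 3.05 ± 0.577, 4.41 ± 0.465 and 4.34 ± 1.21, did not pass either (SD, n = 3 each, exact permutation p = 0.179, adjusted p = 0.214).

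Set against Fev, each member had its highest mean ratio at E15.5. The log2 ratio of Gata2 to Fev was -1.18, -0.66 and -1.01 at E11.5, -0.32, 0.16 and 0.42 at E15.5, and -2.61, -2.83 and -1.32 in PN, so that each stage held its own range. It was the pair that passed (exact permutation p = 0.00357, the smallest possible, adjusted p = 0.0214, higher at E15.5 than in the other stages in 3 of 3 libraries). The call was lost when E11.5 library a or c or any E15.5 library was left out (exact permutation, adjusted p = 0.0571 to 0.129). Gata3 to Fev had means of -0.06, 2.22 and 0.14 and Lmx1b to Fev of -3.12, -2.19 and -4.20 at E11.5, E15.5 and PN. Neither passed after adjustment (exact permutation p = 0.0250 and 0.0464, adjusted p = 0.0643 and 0.0696).

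**Figure D2:**
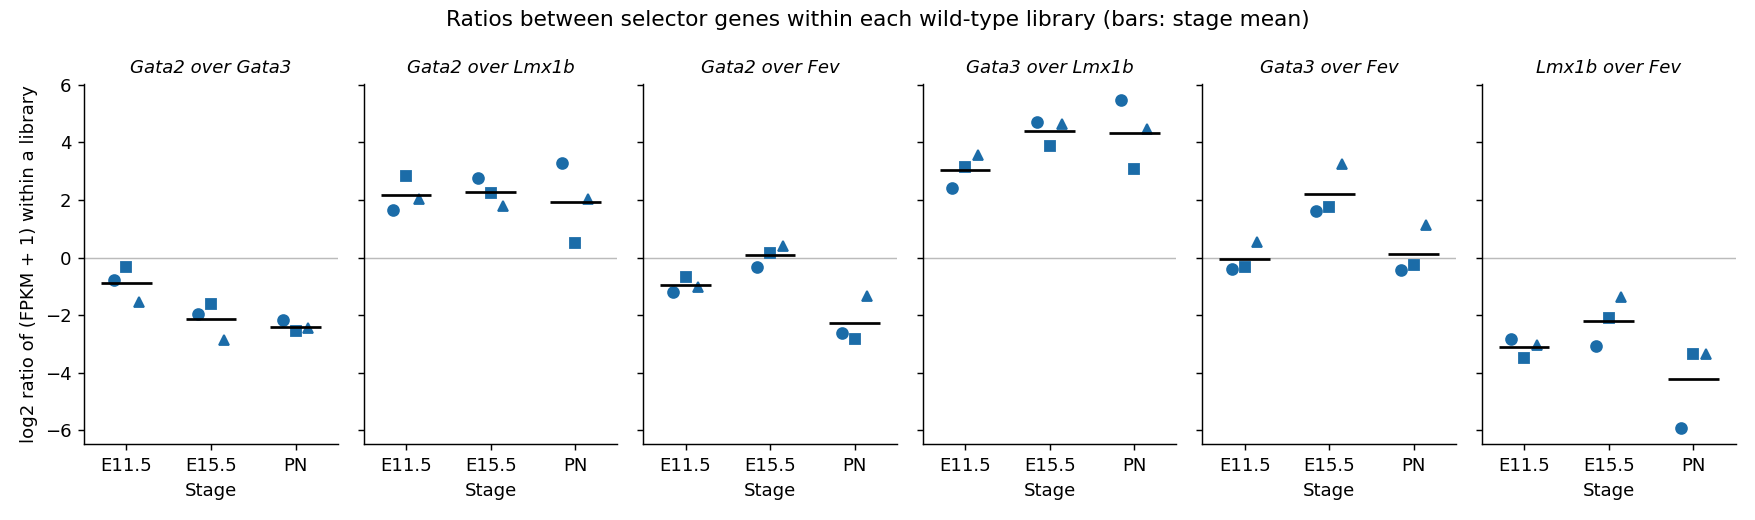
Log2 ratio of FPKM + 1 between 2 genes within each wild-type library, for the 6 pairs among Gata2, Gata3, Lmx1b and Fev, with symbols for libraries a to c and bars at the stage mean. Gata2 over Fev separates the stages (means -0.95, 0.09 and -2.25), while Gata2 over Lmx1b stays near 2 with a wide spread in PN.

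In the Pet-1 knockout at E15.5 none of the 3 members was called with either kit. Fev itself, the targeted gene, was in the authors' deposited tables at 0.422 FPKM in Pet-1-/- and 31.1 FPKM in wild type (Clontech), and at 0.308 and 34.9 FPKM (NuGEN). The authors' deposited tables give 1 value per group and no libraries, so no SD can be given. With q below 0.05, a 1.5-fold change or more and 1 FPKM or more in either genotype, the call was made for 2.82% of 10939 genes with the Clontech kit (1.85% lower and 0.969% higher in Pet-1-/-). With NuGEN it was made for 12.7% of 11019 genes (4.56% lower and 8.19% higher). At an unadjusted p below 0.05 the shares were 16.9% and 28.3%, and no member reached it.

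Gata2 in the authors' deposited tables was at 30.6 FPKM in Pet-1-/- and 33.5 FPKM in wild type (Clontech, log2 fold -0.13, q = 0.825), and at 32.6 and 32.6 FPKM (NuGEN, log2 fold 0.0015, q = 0.998). With NuGEN, 0.227% of genes moved less. Gata3 was at 137 FPKM in Pet-1-/- and 164 FPKM in wild type (Clontech, log2 fold -0.26, q = 0.433), and at 321 and 406 FPKM (NuGEN, log2 fold -0.34, q = 0.380), again from the authors' deposited tables. Both folds of Gata3 were near the middle of all genes by size, with 51.1% and 48.8% of genes moving less. Lmx1b was at 8.19 FPKM in Pet-1-/- and 4.89 FPKM in wild type in the authors' deposited Clontech table (log2 fold 0.75, q = 0.378), and at 2.15 and 2.54 FPKM in the NuGEN table (log2 fold -0.24, q = 0.793). Its direction differed between the kits, and with Clontech 86.1% of genes moved less. A q that misses the threshold does not show that the levels are equal, and the tables hold no interval.

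**Figure D3:**
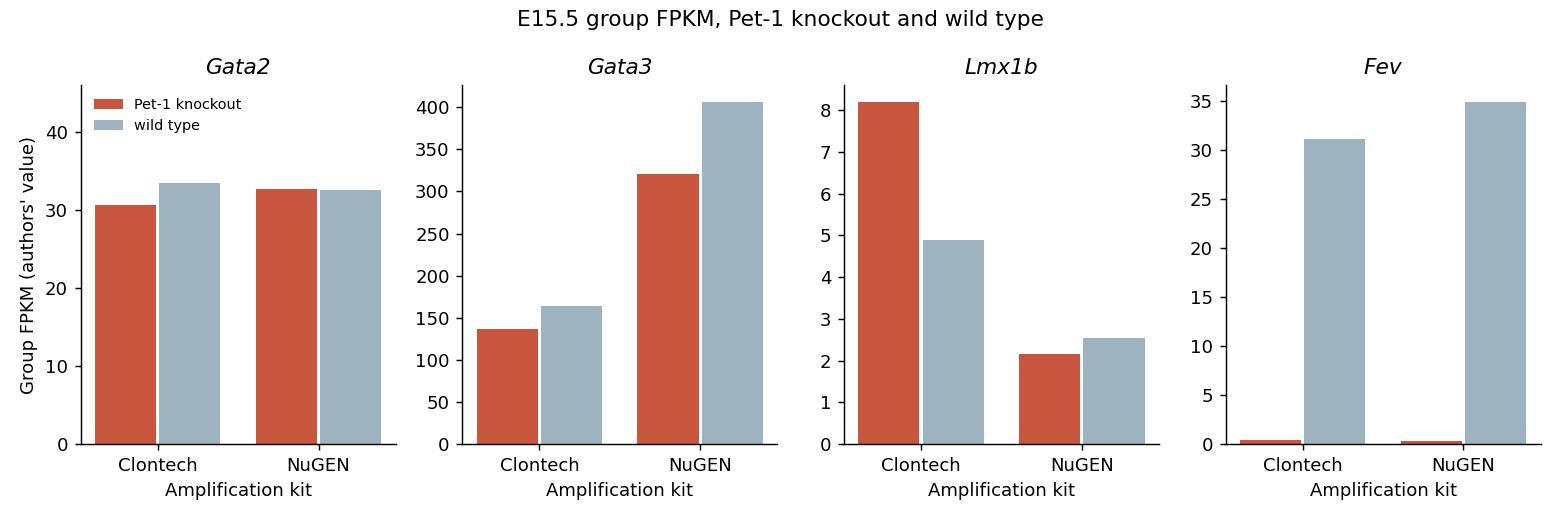
The authors' group FPKM at E15.5 in Pet-1 knockout (left bar of each pair) and wild type (right bar) for the Clontech and NuGEN kits, 1 panel per gene with its own axis from 0. Fev is at 0.422 and 0.308 FPKM in the knockouts, while Gata2 is between 30.6 and 33.5 FPKM in all 4 groups.

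The serotonin genes, which Pet-1 is known to keep active together with the members, are set beside them. Of the list for serotonin synthesis, transport and breakdown, 6 of 10 tested genes were lower and 0 higher in the Clontech knockout, with a list median of -1.47 on the log2 scale beside -0.02 for all genes. With NuGEN 9 of 10 were lower and 0 higher, with a median of -2.44 beside 0.09. Those lower in both were Ddc, Maob, Slc18a2, Slc6a4 and Tph2. Tph2, the rate-limiting enzyme, was at 9.75 FPKM in Pet-1-/- and 63.5 FPKM in wild type (Clontech), and at 11.1 and 218 FPKM (NuGEN) in the authors' deposited tables. Slc6a4, the transporter, was at 6.21 and 25.6 FPKM (Clontech) and at 9.05 and 67.6 FPKM (NuGEN) in the same order and the same authors' deposited tables. The list of other lineage factors holds Fev, the targeted gene, whose fall was fixed by the knockout. With Clontech 2 of 9 were lower (Fev and En1) and 0 higher. With NuGEN 1 of 10 was lower (Fev) and 1 higher (Nkx2-2). Apart from Fev this left En1 with Clontech and Nkx2-2 with NuGEN, beside 2.82% and 12.7% of all genes called. Nkx2-2, a homeobox factor of 5-HT progenitors, was at 18.04 FPKM in Pet-1-/- and 8.35 FPKM in wild type (NuGEN, log2 fold 1.11, q = 0.00206) and at 11.46 and 6.58 FPKM with Clontech (log2 fold 0.80, q = 0.194), from the authors' deposited tables.

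**Figure D4:**
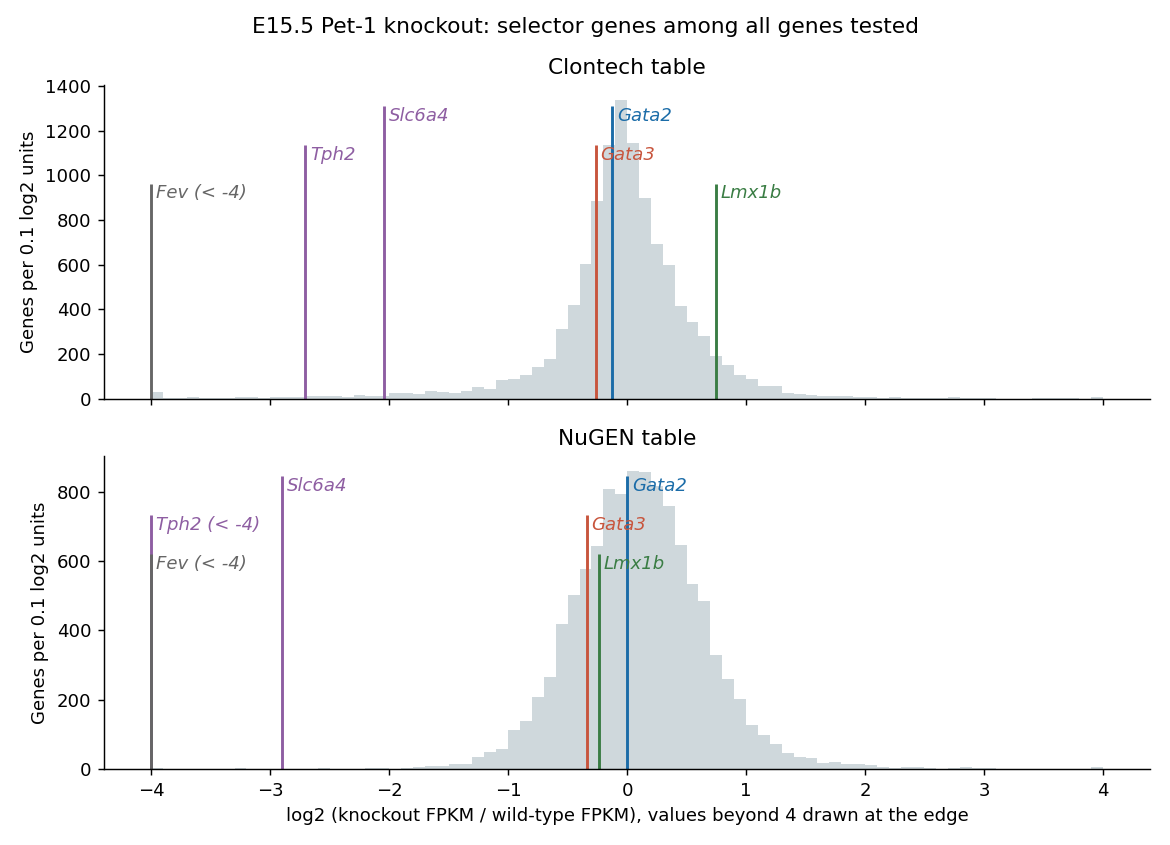
Number of genes per 0.1 log2 units of knockout over wild type in the authors' Clontech (top) and NuGEN (bottom) tables, with lines at the members, Slc6a4, Tph2 and Fev. Gata2 and Gata3 lie within the bulk in both, Lmx1b lies at 0.75 with Clontech and -0.24 with NuGEN, and the serotonin genes lie far to the left.

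The tagged factor had peaks at each member. Of 4934 peaks in the authors' list, 4 lay within the span of Gata2 and 5 kb on either side, 4 at Lmx1b and 1 at Gata3. At least 1 such peak was seen for 24.9% of 21887 protein-coding genes and at least 4 for 0.219% (48 genes), or 2.34% with 50 kb on either side. By this count Gata2 and Lmx1b stood among few genes and Gata3 did not. The cut of 4 is the members' own count, and gene length was not taken into account. The peak score is the authors' own value and reaches 3133, with a median of 88.3. The list comes from 1 immunoprecipitation, so peaks have no replicate.

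At Gata2, whose span is chr6:88193891-88207032, a peak at chr6:88193503-88195485 covered the upstream start site with a score of 297, higher than 92.1% of all peaks. A peak at chr6:88195909-88197406, between the start sites, scored 195. The peak at chr6:88198400-88199081 covered the downstream start site with a score of 66.4, and the one at chr6:88190036-88190830, 3.46 kb upstream, scored 82.5. Both printed Gata2 promoters thus lay under a peak, as did 12.3% of all RefSeq promoter windows. At Lmx1b (chr2:33560965-33641208, minus strand) the promoter shown lay between peaks. The peak at chr2:33638466-33640056, centred 1.84 kb inside the gene, scored 299, and the peak at chr2:33641729-33643093, centred 1.31 kb upstream, scored 219. A further pair lay 9.62 and 10.3 kb inside the gene, with scores of 113 and 52.2. At Gata3 (chr2:9857078-9887953, minus strand) the peak at chr2:9876429-9877869 was centred 1.45 kb downstream of the listed start site, which lies within that span, and scored 136, higher than 74.9% of peaks. With peaks in the upper part of the scores, above the median, 2 remained at Gata2, 3 at Lmx1b and 1 at Gata3. As many or more such peaks were seen for 1.08%, 0.174% and 13.8% of genes.

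**Figure D5:**
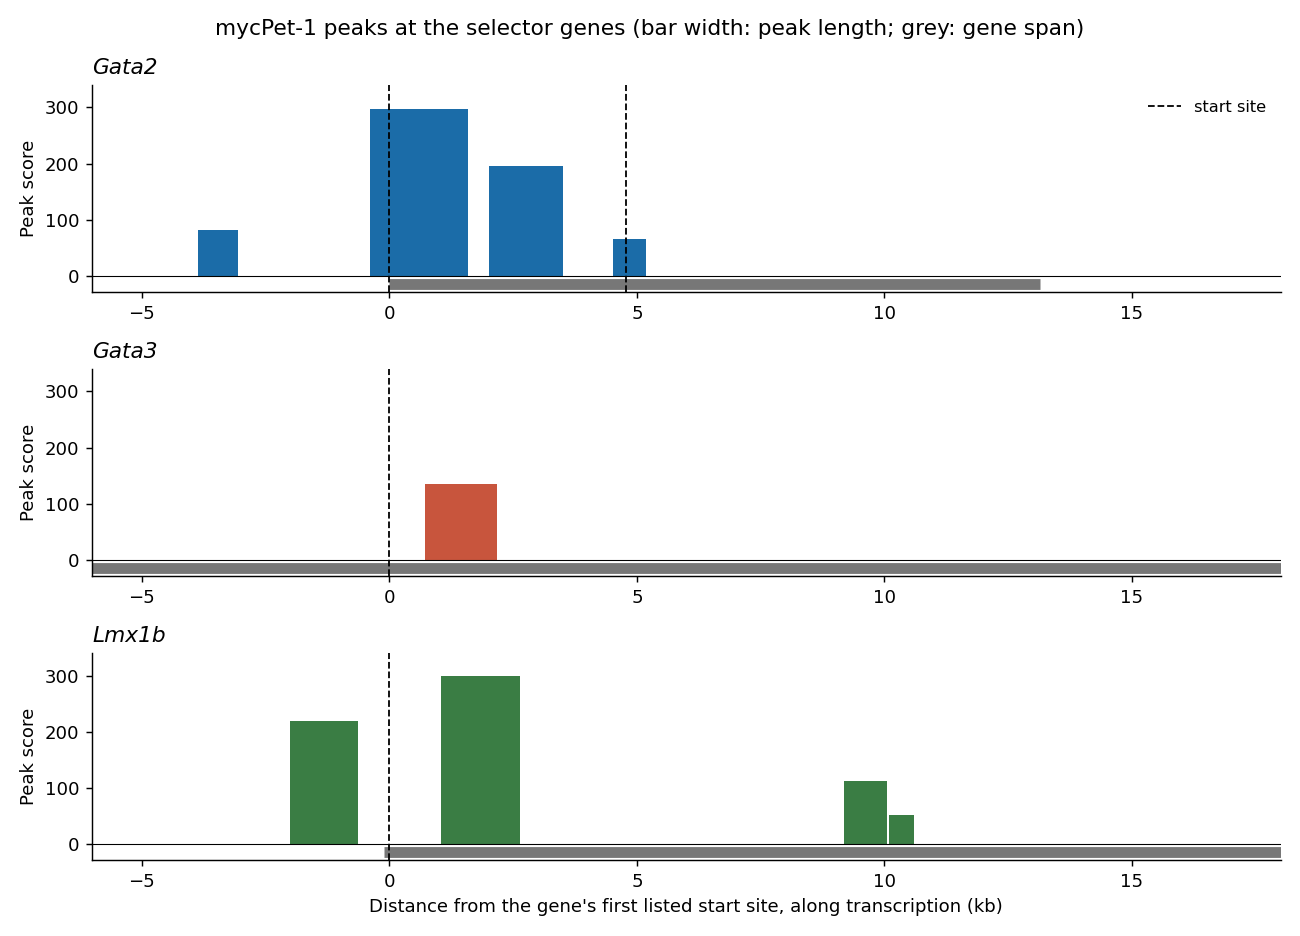
Authors' mycPet-1 peaks at Gata2, Gata3 and Lmx1b, by distance in kb from the first listed start site along the direction of transcription, with bar width the peak length, bar height the peak score, dashed lines the start sites and grey bars the gene span. Gata2 has peaks over both start sites, Lmx1b on either side of its start site, and Gata3 has 1 peak of score 136 inside the gene.

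Peaks were also common at the other factors of the 5-HT lineage, where 11 of 11 listed genes had 1 or more within the same distance, Fev and Insm1 among them. Of LIM homeobox genes and their cofactors 12 of 20 had one, of the GATA family and its cofactors 4 of 10, and of the serotonin synthesis, transport and breakdown genes 2 of 10, Ddc and Slc22a3, beside 24.9% of all genes. Genes with a peak included Lhx8 and Gata4, both at 0 FPKM in all 9 wild-type libraries. Peaks were thus not limited to genes detected in these neurons. The Fev peak scored 59.9 and overlapped the promoter window shown. The transgenes carry a Fev regulatory fragment. Whether that fragment spans this peak, and so adds reads from transgene copies, was not tested. Of the 5 serotonin genes called lower in both knockouts, Ddc had a peak within 5 kb, and Maob, Slc18a2, Slc6a4 and Tph2 had none.

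Relatives of the members were at low levels. Gata1, Gata4, Gata5 and Gata6, GATA factors of blood, heart and gut, averaged at most 0.176 FPKM at any stage, and Lmx1a, the relative of Lmx1b in dopamine neurons, at most 0.153 FPKM. Of 10 GATA family genes and cofactors 3 were tested, and Zfpm1, which encodes the cofactor FOG1 that binds GATA factors, was lower at E15.5 and in PN than at E11.5. It was at 8.25 ± 3.02, 1.01 ± 0.472 and 0.504 ± 0.279 FPKM at E11.5, E15.5 and PN (SD, n = 3 each), with log2 changes of -2.18 for E15.5 (SE 0.36, limma adjusted p = 9.97e-04) and -2.59 for PN (SE 0.36, limma adjusted p = 2.18e-04) against E11.5. PN minus E15.5, at -0.41, did not pass (SE 0.36, limma adjusted p = 0.451). Tal2, a helix-loop-helix factor of midbrain GABA neurons, was listed at 0 at E11.5 and in PN and at 2.51 ± 0.599 FPKM at E15.5 (SD, n = 3). The NuGEN kit did not show this level: E15.5 wild type was at 0.0834 FPKM there, against 2.41 FPKM with Clontech, in the authors' deposited tables. In Pet-1-/- it was at 0.00742 FPKM with Clontech. The median of the 3 tested was -0.25, -0.41 and 0.00 for E15.5 against E11.5, PN against E15.5 and PN against E11.5, beside 0.11, 0.01 and 0.08 for all genes.

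LIM homeobox proteins such as Lmx1b bind the adaptors Ldb1 and Ldb2, and these changed in opposite directions. Ldb1 was at 13.7 ± 6.33, 10.7 ± 3.08 and 2.03 ± 0.700 FPKM at E11.5, E15.5 and PN, and was lower in PN than at E11.5 (log2 change -2.23, SD, n = 3 each, limma adjusted p = 0.00123). Ldb2 was at 2.98 ± 1.93, 22.6 ± 6.61 and 18.6 ± 4.40 FPKM at the same stages, higher in PN than at E11.5 (log2 change 2.43, SD, n = 3 each, limma adjusted p = 0.00122). Lmo3, a LIM-only protein, was at 14.3 ± 5.25, 17.6 ± 4.07 and 4.19 ± 0.778 FPKM and was lower in PN than at E11.5 (log2 change -1.51, SD, n = 3 each, limma adjusted p = 0.00717). Of 10 tested genes of this list, 1 was higher and 3 were lower at E15.5 than at E11.5, 1 and 2 in PN than at E15.5, and 2 and 3 in PN than at E11.5. Over all genes 28.9%, 20.2% and 27.4% were called in these comparisons. The list medians were -0.30, 0.05 and -0.47, beside 0.11, 0.01 and 0.08 for all genes. In the knockouts Lmo1, another LIM-only protein, was the 1 of 9 that was higher, in both kits, and 0 were lower. It was at 67.9 FPKM in Pet-1-/- and 27.4 FPKM in wild type (Clontech) and at 52.8 and 17.9 FPKM (NuGEN) in the authors' deposited tables. Of the GATA list 0 of 4 (Clontech) and 0 of 2 (NuGEN) tested genes were called. The list medians were 0.03 and 0.29 for the LIM genes and 0.87 and 0.77 for the GATA list with Clontech and NuGEN, beside -0.02 and 0.09 for all genes.

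Of 10 tested factors of the 5-HT lineage beside the members, 6 were lower and 0 higher at E15.5 than at E11.5, 1 and 0 in PN than at E15.5, and 8 and 0 in PN than at E11.5, with medians of -1.67, -0.29 and -1.69 beside 0.11, 0.01 and 0.08 for all genes, of which 28.9%, 20.2% and 27.4% were called in either direction. Insm1, a zinc finger factor of newborn neurons, had the lowest change of the list for PN against E11.5 (-4.43 on the log2 scale), with 52.5 ± 18.5, 9.23 ± 2.36 and 1.43 ± 0.506 FPKM at E11.5, E15.5 and PN (SD, n = 3 each). Hmx2 and Nkx2-2, homeobox factors, had log2 changes of -3.03 and -2.37 for PN against E11.5. Of the 10 serotonin genes, 5 were lower and 0 higher at E15.5 than at E11.5, 1 was lower and 2 were higher in PN than at E15.5, and 2 were lower and 0 higher in PN than at E11.5, with medians of -0.73, 0.47 and -0.25 beside the same shares and medians of all genes. Tph2 was at 188 ± 103, 64.1 ± 12.6 and 91.5 ± 35.9 FPKM at E11.5, E15.5 and PN (SD, n = 3 each). Slc6a4 was at 98.2 ± 54.7, 25.8 ± 2.24 and 137 ± 29.8 FPKM at the 3 stages (SD, n = 3 each). Slc22a3, an organic cation transporter, was at 18.6 ± 3.73, 1.19 ± 0.209 and 3.23 ± 1.06 FPKM, and Maob, which breaks down monoamines, at 31.5 ± 20.6, 34.2 ± 3.29 and 7.52 ± 3.74 FPKM (SD, n = 3 each).

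The genes whose levels followed each member most closely over the 9 libraries were listed by Pearson's r of log2(FPKM + 1), as a description, since the libraries share 3 stages. For Gata2 they were Kctd10, Insm1, Llgl1, Abtb2 and Zfp287, with r between 0.980 and 0.993. Insm1 thus stood near Gata2 (r = 0.985). For Gata3 they were 3110003A17Rik, Snrpe, Casp6, Pdzrn4 and Rpl36a (0.979 to 0.990). Of these Snrpe is a core protein of the spliceosome, Rpl36a a ribosomal protein and Casp6 a caspase. For Lmx1b they were Zfp710, Zfp334, Jam2, Sft2d3 and Ece2 (0.959 to 0.979), with Jam2 an adhesion protein and Ece2 a peptide-cleaving enzyme. No member was among the closest of another: Gata2 and Gata3 had r = 0.899, Gata2 and Lmx1b 0.852, and Gata3 and Lmx1b 0.824. Fev followed Gata2 at 0.711, Lmx1b at 0.657 and Gata3 at 0.491.

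Noncoding genes overlap the members. The span of Gata3 overlaps 4930412O13Rik, on the opposite strand, and 9230102O04Rik, a long noncoding RNA for which no strand was listed. The counting is not stated to use strand, so reads of overlapping genes may not be kept apart. The E11.5 libraries of 9230102O04Rik held 379, 181 and 179 FPKM, those of E15.5 held 57.9, 47.6 and 39.7 FPKM, and those of PN 35.4, 30.6 and 24.1 FPKM. Its mean was 247 FPKM at E11.5, beside 246 FPKM for Gata3, and it was below Gata3 in every later library, with log2 changes of -2.25 for E15.5 against E11.5 (SE 0.32, limma adjusted p = 4.46e-04) and -0.67 for PN against E15.5 (SE 0.32, limma adjusted p = 0.164). 4930412O13Rik averaged 7.27 ± 4.35, 4.26 ± 0.993 and 1.41 ± 0.219 FPKM at E11.5, E15.5 and PN (SD, n = 3 each). Neither was called in a knockout table. Gm38708 overlaps Gata2, and Gm39790 and C130021I20Rik overlap Lmx1b, all on the opposite strand, and these were not among the genes of the stage matrix analysed here.

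Cells other than 5-HT neurons could also carry the members, so their markers are given. The 5-HT markers Tph2, Slc6a4 and Fev were present at every stage, with summed levels of 409 to 647, 112 to 149 and 208 to 364 FPKM at E11.5, E15.5 and PN. Endothelial markers (7), a tissue where Gata2 is active, summed to at most 5.13 FPKM in any library, with Pecam1, Cdh5, Cldn5, Kdr and Emcn at 0 in all E11.5 libraries. Erythroid markers (8 of 10 measured) summed to 0 to 0.763, 12.9 to 66.1 and 1.75 to 10.7 FPKM, with Gata1 at 0 at E11.5 and in PN. Markers of GABA and glycine neurons (4) summed to 1.18 to 5.19, 1.42 to 3.46 and 5.61 to 13.6 FPKM. Markers of dopamine neurons (4), which also use Lmx1b, summed to 0.00762 to 0.0623, 3.48 to 8.26 and 3.99 to 66.1 FPKM. At E15.5 and in PN this was mostly Th (means 6.39 and 26.8 FPKM), while Slc6a3, Pitx3 and Lmx1a averaged at most 0.530 FPKM. In the authors' deposited tables Th was at 5.66 FPKM in E15.5 wild type with Clontech and at 0.0622 FPKM with NuGEN. Microglia markers (7) summed to 2.49 to 11.02, 6.55 to 24.8 and 102 to 969 FPKM. Astrocyte markers (5) summed to 0.635 to 1.399, 15.3 to 36.2 and 14.7 to 25.8 FPKM. Progenitor markers (5) summed to 149 to 232, 910 to 1685 and 327 to 957 FPKM, mostly from Fabp7 (means 178, 1347 and 563 FPKM). At E15.5 against E11.5 Fabp7 was called higher but Sox2 lower (log2 change -1.06, limma adjusted p = 0.0326). For PN against E11.5, Fabp7 and Hes5 were called higher and Nes lower (log2 changes 1.54, 2.02 and -2.15). The progenitor sums thus do not stand for all their markers. PN library b, with the highest Lmx1b of its stage, also had its highest 5-HT sum (364 FPKM, against 332 and 208 in libraries a and c). Its sums were also the highest of the stage for microglia (969 FPKM), astrocyte (25.8 FPKM), progenitor (957 FPKM, of which Fabp7 gave 938) and dopamine neuron markers. The last came to 66.1 FPKM, of which Th gave 64.7, Slc6a3 0.999, Pitx3 0.391 and Lmx1a 0.00752. Its erythroid and GABA and glycine neuron sums were the lowest of the stage. Their part in the Lmx1b value was not tested, and without that library the log2 change of Lmx1b for PN against E15.5 was -1.53 (limma adjusted p = 0.0713). Without PN library a, the lowest in Lmx1b, it was -0.39 (limma adjusted p = 0.672), and these were the extremes over the libraries left out in turn, beside -0.95 with all.

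Marker sums over the group values of the authors' deposited tables also differed between genotypes, with no replicate to test them. The 5-HT sum was 16.4 FPKM in Pet-1-/- and 120 FPKM in wild type with Clontech, and 20.4 and 321 FPKM with NuGEN, over Tph2, Slc6a4 and Fev. Fev is the targeted gene, and Tph2 and Slc6a4 were called lower in both knockouts. This sum therefore cannot tell how many 5-HT neurons a knockout sample held. Progenitor markers summed to 462 FPKM in Pet-1-/- and 1298 FPKM in wild type with Clontech, and the other way with NuGEN, to 289 and 139 FPKM, mostly from Fabp7. Astrocyte markers summed to 7.04 FPKM in Pet-1-/- and 28.7 FPKM in wild type (Clontech) and to 8.34 and 10.7 FPKM (NuGEN), and microglia markers to 2.06 and 11.9 FPKM (Clontech) and 0.632 and 1.71 FPKM (NuGEN). Endothelial sums were 1.64 FPKM in Pet-1-/- and 2.52 FPKM in wild type (Clontech) and 1.06 and 0.275 FPKM (NuGEN). Erythroid markers (6 of 10 measured, without Hba-a1 and Hbb-b1) summed to 6.56 FPKM in Pet-1-/- and 11.53 FPKM in wild type (Clontech). With NuGEN they summed to 0.456 and 0.189 FPKM. The erythroid sums of the stages held more markers and cannot be set beside these. Markers of GABA and glycine neurons summed to 2.60 and 2.56 FPKM (Clontech) and 3.31 and 3.19 FPKM (NuGEN), in the same order. These sums hide opposite directions. Gad2 was at 1.78 and 0.775 FPKM (Clontech) and 1.86 and 0.951 FPKM (NuGEN, called higher, authors' q = 0.0269). Gad1, not called, was at 0.797 and 1.77 FPKM (Clontech) and 1.37 and 2.18 FPKM (NuGEN). Dopamine neuron markers summed to 2.52 and 5.83 FPKM (Clontech, of which Th gave 2.15 and 5.66) and 0.0877 and 0.133 FPKM (NuGEN). Their part in the members' knockout values was not tested. Across the 9 stage libraries FPKM summed to 619069 to 893306, 9607 to 11275 genes reached 1 FPKM, and r of log2 values was 0.903 to 0.966 within stages and 0.794 to 0.888 between them. The files give no read numbers, so depth is unknown and no counting error can be given.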

How the data were processed

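RNA of sorted 5-HT neurons (18 of the 20 samples, 8 groups in all) and 1 chromatin sample with 1 input were used. Per the submitters' processing notes, TopHat2, Cufflinks, BWA and MACS 1.4.2 were run, on mm9 and mm10 without stated roles. FPKM were deposited by the authors per library (stages) and per group (knockout). Log2 folds, p-values and q-values are the authors', per the file headers. Peak scores were deposited by the authors for mm10.

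The stage columns name no replicate, so libraries are letters in column order, and 3 columns that match no sample were left aside. No kit is named for E15.5, whose columns were taken as Clontech, the kit of the other stages per the labels. Their mean over the Clontech wild-type FPKM had a median ratio of 1.01 (5% to 95% of 6382 genes between 0.874 and 1.19), against 1.09 (0.482 to 2.06, 6087 genes) for NuGEN. Another 14 genes with failed estimates were left out.

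limma 3.58.1 (R 4.3.3, mean-variance trend, pseudocount 1, 6 residual degrees of freedom) was fitted to genes with at least 1 FPKM in 3 libraries and tested on simulated data. Kit tables were normalised separately. The named genes are the members, Fev, the 5 genes closest to each member, and called genes of the lists (values for the 3 with the largest change between E11.5 and PN and for those called in a knockout), and overlapping genes. Members and lists were chosen with earlier results of these data known. Peaks were matched to RefSeq spans of GRCm38.p6. A genome sequence was not used here, so peak sequences are not shown.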

Additional observations from a re-analysis of the deposited data

How the results depend on the processing

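All 3 falls from E11.5 to PN kept their call under each of the 14 alternatives run, with leave-one-out log2 changes of -3.50 to -3.02 for Gata2, -1.92 to -1.57 for Gata3 and -3.59 to -2.45 for Lmx1b. The single intervals depended more on the settings. With no filter on low values, the log2 changes of Lmx1b for E15.5 against E11.5 (-2.06, limma adjusted p = 0.0570) and of Gata2 for PN against E15.5 (-1.27, adjusted p = 0.0555) no longer passed. More genes were tested there (17724). Upper quartile scaling brought Gata3 for E15.5 against E11.5 past the threshold (-0.89). Leaving out each library in turn gave -0.91 to -0.56 for Gata3 from E11.5 to E15.5, and -1.60 to -1.06 for Gata2 and -1.15 to -0.89 for Gata3 from E15.5 to PN. The number of genes called from E15.5 to PN ran from 1325 to 2960. With a pseudocount of 0.1 FPKM the ratios of Gata2 to Gata3, Gata3 to Fev and Lmx1b to Fev passed (exact permutation, adjusted p = 0.0429 each), with PN minus E11.5 values of -1.59, 0.21 and -1.58. Leave-one-out values of Gata2 to Fev ran from -1.77 to -1.02. The cause of these shifts was not tested. Scaling moved the median of all genes for E15.5 against E11.5 from 0.11 to -0.02 (upper quartile), and no member changed direction. Dropping the fold minimum or lowering the q limit gave no knockout call of a member. Neither rule could have given one, since the lowest q of a member with either kit was 0.378. Using peaks above the median score left 2 at Gata2. No paired analysis was possible because the stage columns carry no replicate number and the knockout tables hold group values. Low FPKM, unknown depth and 3 libraries per group limit what can be seen of Lmx1b.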

Other observations

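The kits gave different levels of the same gene at E15.5. The tables were normalised separately, so these levels are set side by side without a test. Gata3 in wild type was at 406 FPKM with NuGEN and 164 FPKM with Clontech, a ratio of 2.47, and the ratio in Pet-1-/- was 2.34. Lmx1b went the other way, at 2.54 FPKM with NuGEN and 4.89 FPKM with Clontech in wild type, a ratio of 0.519. Gata2, at 32.6 and 33.5 FPKM, had a ratio of 0.974. The ratio of Gata2 to Gata3 was 0.102 in Pet-1-/- and 0.0803 in wild type with NuGEN, and 0.224 and 0.204 with Clontech, so it differed more between kits than between genotypes within a kit.

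The promoters of 9 serotonin synthesis, transport and breakdown genes were in the RefSeq table, with 10 start sites. In the 250 bases before the start site GGAA was found for 9 of 9 genes, beside 93.4% of all promoters. GATAA was found for 3 of 9 (Maoa, Slc18a2 and Tph2), beside 22.6%, and TAATTA for 0 of 9, beside 4.84%.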
